A study of Homo sapiens with 4 samples.

Results

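The BCL2 family genes that set the balance of survival and death signals at mitochondria were examined in IMR-32 cells. IMR-32 is a long-established line grown from a human neuroblastoma, a tumour of the sympathetic nervous system, and carries extra copies of MYCN. The set held 10 genes out of 60612 in the count table and was chosen by name: the pro-survival genes BCL2, BCL2L1, BCL2L2 and MCL1, the effector gene BAK1, and the BH3-only genes BCL2L11, BID, BAD, BMF and HRK. All 10 had enough counts to be tested. RNA sequencing (RNAseq) compared 2 libraries carrying a control hairpin (shControl) with 2 libraries carrying a hairpin against NeuroD1 (shNeuroD1), a transcription factor of the bHLH class. Hairpins were stably transduced, and both groups received doxycycline (1 µg/mL, 48 h) to switch them on. The genotype label of the control cells is WT, and the labels state neither the NeuroD1 hairpin used nor separate cultures for the 2 libraries of a group. Titles end in 1 or 2 in both groups, and these digits were read as replicate numbers. The paper names its 2 NeuroD1 hairpins shNeuroD1-1 and shNeuroD1-2, as the shNeuroD1 titles read, so these 2 libraries may carry different hairpins. The p-values therefore measure only the spread between these libraries, which may be technical or, in shNeuroD1, may include a difference between hairpins.

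BCL2 family proteins decide whether the outer mitochondrial membrane stays closed. The effectors BAK and BAX open pores in it and release cytochrome c, which starts the caspase cascade. Pro-survival proteins such as BCL-2, BCL-XL, BCL-W and MCL-1 hold the effectors and their activators in check, while BH3-only proteins bind and neutralise the pro-survival proteins or activate the effectors directly. Dependence on BCL2 or MCL1 is a known feature of neuroblastoma cells, and HRK is known from neurons, where loss of trophic support induces it.

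Total counts per library ranged from 14665210 to 16482463, and mitochondrial genes took 4.37% and 4.59% of them in shControl against 5.39% and 5.51% in shNeuroD1. The part of this difference in the results was not tested. NEUROD1, the targeted gene, was at 418.9 and 414.5 CPM (counts per 1000000 of a library, scaled by TMM) in shControl and at 63.7 and 58.19 CPM in shNeuroD1, which is 14.6% of control. Among markers of sympathetic neuroblastoma, PHOX2A, HAND2, GATA3, ISL1 and CHGA were abundant. In shNeuroD1 GATA3 was at 149% and CHGA at 169% of control, while ISL1 was at 64.5%, HAND2 at 91.1% and PHOX2A at 99.2%. TH was low but rose from 0.679 and 1.26 CPM to 5.79 and 5.19 CPM, and DBH fell from 1.56 and 1.51 CPM to 0.789 and 0.722 CPM. Of 10 markers of other cell types, CD3E and KRT5 had 0 counts in every library. PTPRC, LYZ, DCN and PECAM1 had 5 or fewer counts. COL1A1 fell from a mean of 36.0 to 18.7 CPM, LUM and VWF rose from low levels, and EPCAM had 0 and 1 counts in shControl against 28 and 21 in shNeuroD1. Their part in the results was not tested.

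HRK changed most among the 10 genes, to 23.5% of its control level. BCL2 fell to 62.2%, BAK1 to 76.0% and MCL1 to 83.7% of control. BID rose slightly, to 114%. BCL2L1, BCL2L2, BCL2L11, BAD and BMF did not pass the test. By edgeR's quasi-likelihood test with Benjamini-Hochberg adjustment over 17537 genes, 4 members were lower and 1 was higher at an adjusted p under 0.05. Among all genes tested 28.2% were lower and 26.8% were higher, so the members' counts stand against a broad change of the transcriptome. With a log2 fold change beyond 1 also required, only HRK was lower and 0 members were higher, against 5.14% lower and 8.79% higher over all genes. The 2 groups did not overlap for 6 of 10 members, compared with 76.1% of all genes tested. The members' median log2 fold change was -0.12, and that of all genes was 0.01.

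**Figure D1:**
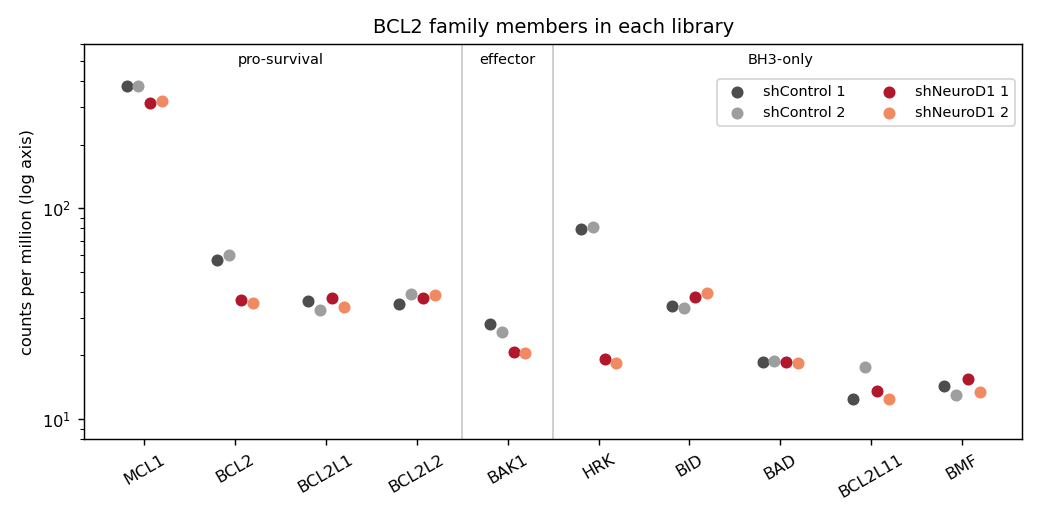
CPM of each BCL2 family member on a log axis, with 1 point per library and genes ordered by role. The HRK points split into 79.18 and 80.99 CPM in shControl and 19.26 and 18.32 CPM in shNeuroD1, while the points of BAD lie on top of each other.

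Among the pro-survival genes, MCL1 and BCL2 were lower and the other two did not pass the test. MCL1 encodes a short-lived protein that restrains BAK1 in particular. Its level was 380.3 and 379.6 CPM in shControl and 314.5 and 321.3 CPM in shNeuroD1. Both shNeuroD1 libraries lay below both controls, and the log2 fold change was -0.26 (SE 0.0411, adjusted p = 2.98e-06, edgeR).

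BCL2, the founding member and the target of the drug venetoclax, was at 56.58 and 59.57 CPM in shControl and at 36.61 and 35.59 CPM in shNeuroD1. The groups did not overlap, and the log2 fold change was -0.69 (SE 0.0683, adjusted p = 3.21e-10, edgeR).

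BCL2L1 encodes BCL-XL and, from an alternative splice site, a shorter protein that promotes death. Its counts gave 36.37 and 33.0 CPM in shControl and 37.47 and 33.89 CPM in shNeuroD1. The libraries of the 2 groups interleaved, and the 95% interval of the log2 fold change ran from -0.12 to 0.20 (adjusted p = 0.679, edgeR). BCL2L2 encodes BCL-W. It was at 35.14 and 38.92 CPM in shControl and at 37.6 and 38.88 CPM in shNeuroD1, again with overlapping groups and an interval from -0.11 to 0.20 (adjusted p = 0.645, edgeR). These intervals leave room for changes of either gene as large as the one called for BID.

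The effector BAK1 was at 28.29 and 25.88 CPM in shControl and at 20.71 and 20.49 CPM in shNeuroD1. Every shNeuroD1 value was below every control value, and the log2 fold change was -0.39 (SE 0.0923, adjusted p = 5.36e-04, edgeR). BAX, the other main effector and not one of the 10, moved the opposite way. It was at 66.49 and 62.6 CPM in shControl and at 74.48 and 74.34 CPM in shNeuroD1, a log2 fold change of 0.21 (adjusted p = 0.00343, edgeR).

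HRK (Harakiri) is a BH3-only gene whose product binds BCL-2 and BCL-XL. Its reads numbered 1167 and 1286 in the shControl libraries against 293 and 279 after knockdown, which correspond to 79.18 and 80.99 CPM and to 19.26 and 18.32 CPM. The control libraries differed by less than 2 CPM and the shNeuroD1 libraries by less than 1 CPM, so the gap between the groups was far wider than the spread within them. The log2 fold change was -2.09 (SE 0.0725, 95% interval -2.24 to -1.94, adjusted p = 1.34e-21, edgeR), and HRK ranked 555 of 17537 genes by size of change. In bulk RNA, fewer cells that make HRK and less HRK RNA per cell cannot be told apart.

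BID links death receptors to mitochondria once caspase-8 has cut it. It was at 34.47 and 33.44 CPM in shControl and at 38.06 and 39.4 CPM in shNeuroD1. The groups did not overlap, but the log2 fold change was only 0.19 (SE 0.0749, adjusted p = 0.0314, edgeR). This call was lost without a filter on low counts (adjusted p = 0.0969), with DESeq2 (adjusted p = 0.312) and with any 1 of the 4 libraries left out (adjusted p from 0.0792 to 0.193).

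BCL2L11 encodes BIM, a strong activator of BAX and BAK. It was at 12.42 and 17.63 CPM in shControl and at 13.54 and 12.41 CPM in shNeuroD1. The control libraries were themselves far apart, with the first among the shNeuroD1 values, and the log2 fold change was -0.22 (95% interval -0.49 to 0.06, adjusted p = 0.179, edgeR). Without shControl replicate 1 it was -0.45 and just passed the test (adjusted p = 0.0499), and without shControl replicate 2 it was 0.05 (adjusted p = 0.753).

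BAD, which growth factor signalling inactivates by phosphorylation, was the steadiest member at 18.59 and 18.77 CPM in shControl and 18.54 and 18.39 CPM in shNeuroD1. Its groups did not overlap, yet the log2 fold change was -0.02 (95% interval -0.23 to 0.19, adjusted p = 0.905, edgeR). BMF, which senses loss of attachment and damage to the cytoskeleton, was at 14.32 and 13.04 CPM in shControl and at 15.38 and 13.4 CPM in shNeuroD1. Its groups overlapped and the 95% interval ran from -0.17 to 0.32 (adjusted p = 0.628, edgeR).

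**Figure D2:**
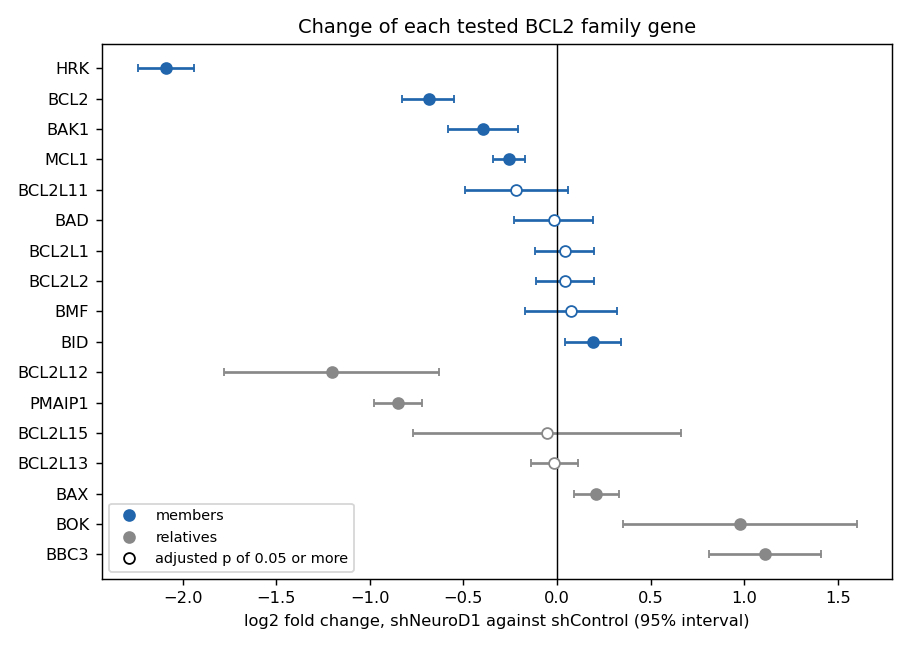
Log2 fold change of shNeuroD1 against shControl with its 95% interval for the 10 members (blue) and the 7 relatives that could be tested (grey), where open points had an adjusted p of 0.05 or more. HRK stands at -2.09, apart from the other members, which lie between -0.69 and 0.19.

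The 4 members that fell lie on 4 chromosomes. In the GENCODE 29 annotation of GRCh38, HRK spans chr12:116856144-116881441 on the minus strand. BCL2 lies at chr18:63123346-63320128, BAK1 at chr6:33572547-33580293 and MCL1 at chr1:150574551-150579738, all on the minus strand. HRK, BCL2 and BID share no exon base with another annotated gene. The use of strand in counting is not given in the sources used here, so reads of overlapping genes are uncertain for the rest. ABALON, on the opposite strand, covers 43.0% of the exon bases of BCL2L1. BCL2L2 shares 24.3% with its read-through transcript BCL2L2-PABPN1 and with PPP1R3E. BCL2L2-PABPN1 is on the same strand as BCL2L2, so reads of that overlap are uncertain whatever the use of strand. BAD shares 23.7% with GPR137, BCL2L11 10.9% with MIR4435-2HG, BMF 8.46% with BMF-AS1 and BAK1 4.11% with GGNBP1.

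NeuroD1 and its dimer partners bind DNA at E-boxes, spelled CANNTG, which read the same on both strands in this spelling. RefSeq promoter windows (GRCh38.p14, 250 bases before to 50 after a start) were given for 8 of the 10 members in 15 windows. MCL1 and BCL2L2 had none. At least 1 CANNTG was in 7 of the 15 windows, from BAD, BID, BMF and HRK, against 68.7% of all 35116 windows. The HRK stretch is printed because HRK changed most, with its single E-box in capitals, which begins at position -44 relative to the annotated start. It covers the 250 bases before the start, chr12:116881442-116881691 on the minus strand:

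HRK: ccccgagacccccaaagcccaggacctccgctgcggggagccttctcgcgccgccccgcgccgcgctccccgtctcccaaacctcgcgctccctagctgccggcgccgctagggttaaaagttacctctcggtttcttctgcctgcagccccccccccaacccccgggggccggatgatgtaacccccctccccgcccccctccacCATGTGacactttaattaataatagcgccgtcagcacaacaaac

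The windows of BCL2, BCL2L1, BAK1 and BCL2L11 held no CANNTG. The palindrome CAGCTG was in 1 member window, that of BMF at position -31 of the start at 40108879 on chromosome 15, against 17.9% of all windows. The form CAGATG, searched on both strands, was in 0 of the 15, against 14.7% of all. The BMF site is shown for comparison with HRK, since BMF did not pass the test:

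BMF: gcggggcctcatCAGCTGtttgcgggatgc

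A match is a description of these letters. The paper measured NeuroD1 binding in IMR-32 cells by chromatin immunoprecipitation sequencing, and those peaks were not examined here. Of the members that fell, HRK had an E-box in its window and BCL2 and BAK1 did not.

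To compare levels between genes, CPM was divided by the length of annotated exon in kilobases. On this scale MCL1 was the most abundant member in both groups, at 86.9 ± 0.113 (SD, n = 2) in shControl and 72.7 ± 1.1 (SD, n = 2) in shNeuroD1. In shControl it was followed by BAK1 (12.2), HRK (11.7), BAD (10.9), BCL2L1 (10.5), BCL2L2 (8.84), BID (7.64), BCL2 (4.94), BMF (2.51) and BCL2L11 (2.26 CPM per kilobase). The libraries of 3 neighbouring pairs in this order overlapped, namely BAK1 with HRK, BAD with BCL2L1, and BMF with BCL2L11. In shNeuroD1 HRK stood at rank 8 with 2.74 CPM per kilobase, overlapping with BMF at 2.64, after rank 3 in shControl. Annotated exon length counts every isoform, so a gene with long minor isoforms, such as BCL2 with 11765 exon bases, is set low.

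Summed over the 5 BH3-only members, the level was 34.7 and 35.4 CPM per kilobase in shControl and 27.1 and 26.6 in shNeuroD1. HRK made up 33.3% and 33.4% of that sum in shControl and 10.4% and 10.04% in shNeuroD1. Without HRK the sums of the remaining 4 members were 23.1 and 23.6 in shControl and 24.3 and 24.0 in shNeuroD1, no longer below the controls. This holds for the members only. With the relatives PMAIP1, BBC3 and BIK added, the 8 genes summed to 76.7 and 74.3 in shControl and 53.6 and 52.0 in shNeuroD1. In shControl HRK made up only 15.07% and 15.92% of that wider sum, and PMAIP1 51.85% and 49.67%. The 4 pro-survival members together were at 111 CPM per kilobase in both shControl libraries and at 95.3 and 96.0 in shNeuroD1. MCL1 made up 78.3% and 78.1% of this in shControl and 75.5% and 76.5% in shNeuroD1. Without MCL1 the sums were 24.2 and 24.3 in shControl and 23.4 and 22.5 in shNeuroD1. These sums are descriptions and were not tested.

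**Figure D3:**
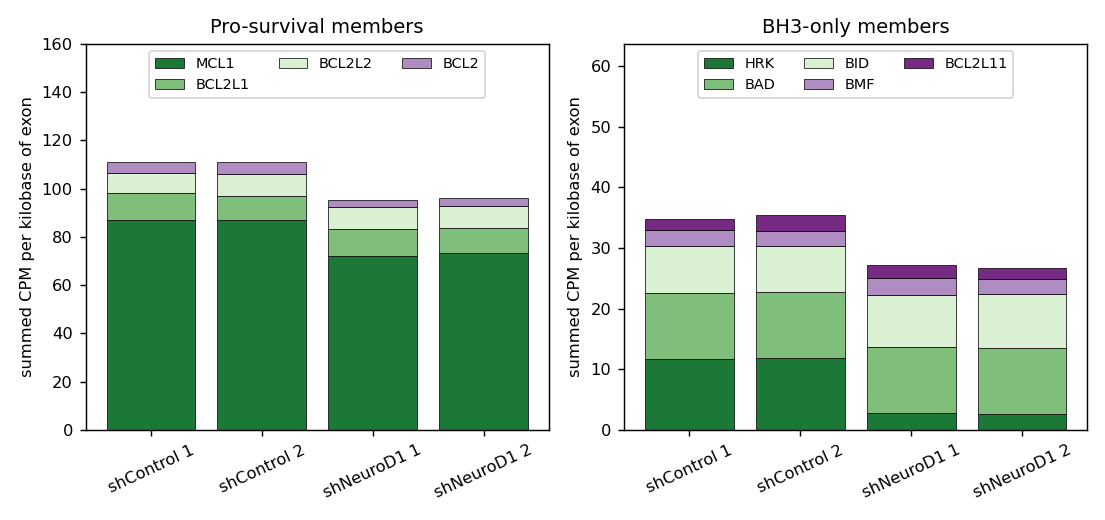
Summed CPM per kilobase of annotated exon in each library for the 4 pro-survival members (left) and the 5 BH3-only members (right), with each gene as a segment. The HRK segment shrinks from 11.6 and 11.8 to 2.81 and 2.67, and MCL1 fills most of each pro-survival bar.

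The authors also deposited FPKM values of assembled transcript events, such as starts and exon forms, in which an event without a value is not listed. For 9 members 91 events were found, and 52 of them were listed in all 4 libraries. BCL2L2 had none under its own identifier, and HRK was listed only in shControl replicate 2 (1.07 FPKM), although it had at least 279 counts in every library. The HRK start listed there, chr12:116879073-116880233, lies downstream of the annotated start used for the promoter window. The gene sum over transcript starts also moved apart between libraries of a group for genes whose counts did not. BCL2L1 was at 11.1 and 2.84 FPKM in shControl and at 7.43 and 2.76 in shNeuroD1. MCL1 was at 36.2 and 35.4 FPKM in shControl and at 27.4 and 62.2 in shNeuroD1. In limma fits on these sums 0 members passed the test. BCL2, BAK1, BID and BCL2L11 kept the direction they had in the counts in every fit. HRK kept its direction in the only fit that tested it. MCL1 turned to a log2 fold change of 0.20 (adjusted p = 0.786, limma), with the higher value from shNeuroD1 replicate 2.

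Single events are given for BCL2, BAK1 and BID, which passed the test on counts, had a sum in every library and kept their direction in these sums. These events were chosen after their values were seen. The sole BCL2 start (chr18:63319174-63319769) was at 2.92 and 3.37 FPKM in shControl and at 2.41 and 1.84 in shNeuroD1. The BAK1 start (chr6:33580025-33580276) was at 7.61 and 7.72 FPKM in shControl and at 5.86 and 6.28 in shNeuroD1. Both shNeuroD1 libraries lay below both controls for both genes. A form of BAK1 that keeps the intron at chr6:33574214-33575298 was at 1.35 and 1.36 FPKM in shControl, at 0.669 in shNeuroD1 replicate 1 and not listed in shNeuroD1 replicate 2. The main BID start (chr22:17774381-17774469) was at 9.47 and 8.82 FPKM in shControl and at 10.96 and 11.49 in shNeuroD1.

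BCL2L1 is known for a choice between 2 donor sites at the end of its first coding exon. The short donor leaves out 189 bases of coding sequence and gives the death-promoting form called BCL-XS. The exon ending at the short donor (chr20:31721844-31722348) was at 8.1e-05 FPKM in shControl replicate 1, not listed in shControl replicate 2, and at 0.585 and 0.67 FPKM in the shNeuroD1 libraries. Its share of the 3 forms of this exon was 7.87% and 24.3% in shNeuroD1, and 0.00073% in shControl replicate 1. Both shNeuroD1 libraries were thus above shControl replicate 1, the only control with a value. The total of the 3 forms ran from 2.76 to 11.1 FPKM without separating the groups, and no test was run. This exon also lies within ABALON on the opposite strand, and reads behind single events were not analysed here. The bases between the 2 donors (chr20:31721655-31721843, minus strand, GENCODE 29), which the long form keeps, are printed because they are what the 2 forms differ by, with the GT of the short donor in capitals:

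BCL2L1: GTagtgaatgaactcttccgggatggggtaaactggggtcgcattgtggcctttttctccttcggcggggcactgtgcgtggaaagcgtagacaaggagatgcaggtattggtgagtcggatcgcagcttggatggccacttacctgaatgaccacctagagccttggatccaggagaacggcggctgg

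**Figure D4:**
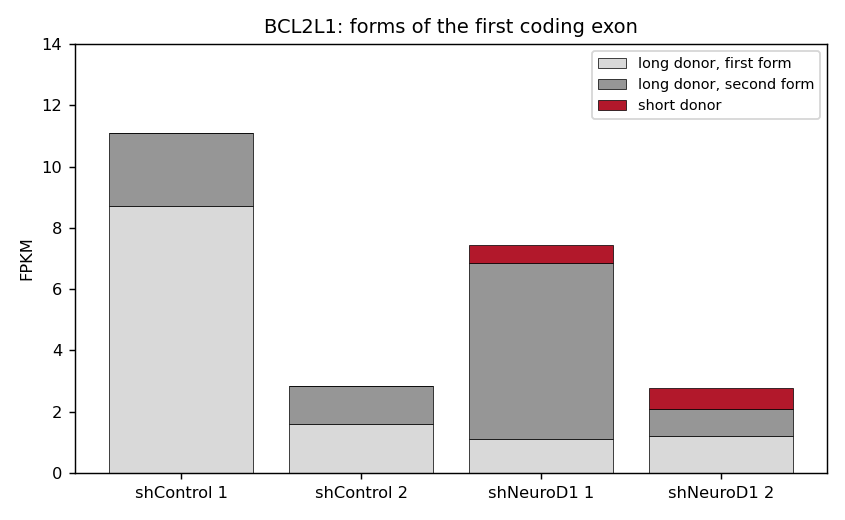
FPKM of the 3 assembled forms of the first coding exon of BCL2L1 in each library, stacked, with an unlisted form drawn as 0. The short donor form (red) is visible only in the shNeuroD1 libraries, at 0.585 and 0.67 FPKM, and the total height differs within each group.

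BCL2L11 and BMF also had events that differed, again as single values. In BCL2L11, the event type names chr2:111123869-111124050 an intron, and whether this stretch is coding sequence was not examined. Transcripts that keep it were at 1.43 and 1.91 FPKM in shControl and at 0.825 and 0.468 in shNeuroD1. The spliced form was unlisted in shControl replicate 1, at 0.354 FPKM in shControl replicate 2, and at 0.21 and 1.1 FPKM after knockdown. Some transcripts splice from the same donor past the next exon, and counting all those that end the exon there put it at 0.675 FPKM in shNeuroD1 replicate 1. With the unlisted spliced form taken as 0, the longer exon form then made up 100% and 84.4% of both forms in shControl. It made up 55% and 29.9% in shNeuroD1, so on that reading both shNeuroD1 libraries lay below both controls. The upstream BMF start (chr15:40108773-40108879) was at 1.15 and 1.75 FPKM in shControl and at 1.09 in shNeuroD1 replicate 1, but at 0.00265 in shNeuroD1 replicate 2. That library instead gave 1.49 FPKM to a start at chr15:40106358-40106448, which was at 0.024 in shNeuroD1 replicate 1 and not listed in shControl.

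Among the 11 further BCL2 family genes, 7 could be tested, of which 2 were lower and 3 were higher. BBC3 (PUMA), a BH3-only gene that p53 induces, was at 6.445 and 5.731 CPM in shControl and at 12.49 and 13.79 CPM in shNeuroD1. It rose by 1.11 on the log2 scale (SE 0.147, adjusted p = 1.1e-07, edgeR). PMAIP1 (NOXA), whose product targets MCL-1, went the other way. It was at 88.88 and 82.43 CPM in shControl and at 49.56 and 45.38 CPM in shNeuroD1. It fell by 0.85 on the log2 scale (SE 0.0629, adjusted p = 3.51e-13, edgeR). These BH3-only genes thus changed in opposite directions, with no overlap between groups for either.

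BCL2L12 fell by 1.20 on the log2 scale, on 49 and 72 counts against 32 and 20, and shares 33.1% of its exon bases with IRF3. BOK, an effector of the BAX type, was 0.98 higher on the log2 scale (adjusted p = 0.00801, edgeR), on 16 and 29 counts against 42 and 46. BCL2L13 (-0.02) and BCL2L15 (-0.05) did not pass the test. BIK reached 3 counts in each shControl library and 6 and 10 after knockdown, BCL2L14 had 5 or fewer counts in each library, and BCL2L10 had 1 or 0, so they were not tested. BCL2A1 had 0 counts in every library, which allows up to 0.189 to 0.204 CPM. Per kilobase of exon, PMAIP1 was the most abundant BH3-only gene in both groups, at 38.3 CPM per kilobase in shControl and 21.2 in shNeuroD1.

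Downstream of the mitochondrion, the caspase and apoptosome genes had 4 lower and 1 higher of 8 tested. APAF1, the scaffold that activates caspase-9, fell by 0.72 on the log2 scale (adjusted p = 1.4e-09, edgeR), from 46.68 and 53.65 CPM to 30.57 and 30.27 CPM. CASP8, the caspase that cleaves BID, fell by 0.68 on the log2 scale (adjusted p = 0.0124, edgeR), on 68 and 77 counts against 53 and 37. The list's median log2 fold change was -0.20.

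Of the inhibitors of apoptosis and their antagonists, 2 of 6 tested were lower and 1 was higher, with a median log2 fold change of 0.00. BIRC5 (survivin), which also acts in cell division, fell by 0.68 on the log2 scale (adjusted p = 3.3e-14, edgeR), and HTRA2, an antagonist released from mitochondria, fell by 0.40 (adjusted p = 6.68e-05, edgeR). Death receptors and adaptors had 3 lower and 1 higher of 7 tested, with a median of -0.03. CFLAR, which blocks caspase-8, was lower by a log2 fold change of -1.61 (adjusted p = 0.00136, edgeR) but on only 24 and 38 counts against 13 and 7. The death receptor FAS followed at -0.89 (adjusted p = 0.0117, edgeR), on 41 and 45 counts against 23 and 23.

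Transcription factors known to act on family members gave 6 lower and 1 higher of 9 tested, with a median log2 fold change of -0.56. TP73, a relative of p53, had a log2 fold change of -2.35 (adjusted p = 4.96e-12, edgeR), from 10.65 and 12.85 CPM to 2.629 and 1.97 CPM. E2F1, a driver of S phase, had -1.65 (adjusted p = 5.93e-21, edgeR), from 141.8 and 127.6 CPM to 43.45 and 42.16 CPM. ATF4, the factor of the integrated stress response, had -1.08 (adjusted p = 3.24e-20, edgeR), from 514.0 and 490.0 CPM to 238.0 and 237.6 CPM. In each the shNeuroD1 libraries lay below both controls.

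Genes for protein partners of the family gave 5 lower and 3 higher of 11 tested, with a median of -0.10. HUWE1, a ubiquitin ligase that marks MCL-1 for degradation, rose by 0.90 on the log2 scale (adjusted p = 3.87e-18, edgeR), from 343.4 and 372.2 CPM to 661.8 and 677.9 CPM. BNIP3L, a mitophagy receptor related to the BH3-only genes, fell by 0.67 on the log2 scale (adjusted p = 5.18e-12, edgeR). Across the relatives and these 5 lists together, 22 genes were lower, 10 were higher and 16 did not pass of 48 tested, with a median of -0.09. This compares with the 28.2% lower and 26.8% higher of all genes given above.

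**Figure D5:**
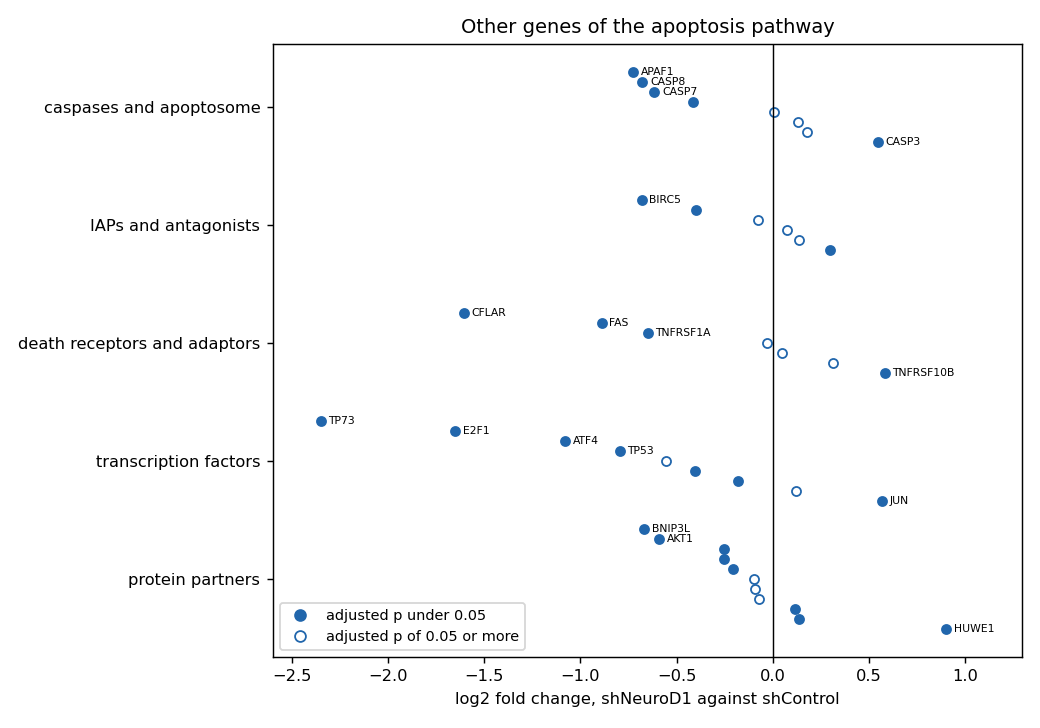
Log2 fold change of shNeuroD1 against shControl for the tested genes of 5 lists, 1 point per gene, filled where the adjusted p was under 0.05 and named where the size also passed 0.5. Transcription factor genes reach -2.35 (TP73), and HUWE1 is the highest at 0.90.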

How the data were processed

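RNAseq was analysed for 4 IMR-32 libraries, grouped by title. Per the labels, the submitters' processing notes name cutadapt 1.9.1, HISAT2 2.0.1, HTSeq 0.6.1, DESeq2 and hg38. The authors deposited raw counts for 60612 Ensembl genes and, per library, FPKM of assembled transcript events, which list only values above 0. A gene's FPKM was taken as the sum over its transcript starts.

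Counts were tested with edgeR 4.0.16 (TMM, filterByExpr with a minimum count of 10, quasi-likelihood, 2 libraries per group) in R 4.3.3 over 17537 genes. DESeq2 1.42.0 and limma 3.58.1 on log2(FPKM + 1) or log2(FPKM + 0.1), with a mean of at least 1 FPKM or no filter, served as alternatives. The fitting code was tested on simulated data, where a first version of the test that took in low-count genes missed its tolerance and the version that passed was restricted, after that, to well-counted genes. Levels between genes used CPM per kilobase of GENCODE 29 exon in place of the planned FPKM scale, after FPKM was found to list HRK in only 1 library and BCL2L2 in none. Genes were mapped to symbols by identifier. Not every gene of the fixed marker list is reported here.

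The members and lists were chosen with earlier results of these data known. Named genes were all members and relatives, NEUROD1 and, per list, genes past a log2 fold change of 1 and the 2 largest changes among those passing. The printed events and promoter matches were chosen after their values were seen.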

Additional observations from a re-analysis of the deposited data

How the results depend on the processing

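HRK, BCL2, BAK1 and MCL1 kept their direction and call under DESeq2 size factors, library size alone, both other filters on low counts, DESeq2, the replicate block and each left-out library. Library size alone moved the median of all genes from 0.01 to 0.12 and the calls over all genes from 4939 lower and 4698 higher to 3639 and 6114. It gave MCL1 -0.15, and BAD changed sign to 0.10. DESeq2 called 3591 lower and 2767 higher of all genes, and of the relatives and pathway genes 5 were higher in place of 10. The number of members higher was 0 without a filter on low counts and with DESeq2. With 1 library left out it was 0 in each case, the number lower was 4 to 5, and the log2 fold change spanned -0.038 to 0.113 for BCL2L1, -0.036 to 0.112 for BCL2L2, -0.453 to 0.0535 for BCL2L11 and -0.0305 to 0.171 for BMF.

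In the 3 FPKM fits, log2(FPKM + 1), log2(FPKM + 0.1) and log2(FPKM + 1) with no filter, 0 members were lower, 0 were higher and 0 were lower beyond 1. Of the relatives and pathway genes 0, 0 and 1 were lower and 0 were higher in each. Over all genes these fits called 278, 257 and 171 lower and 246, 206 and 142 higher. Signs changed to -0.28, -0.31 and -0.28 for BCL2L1, 0.20, 0.20 and 0.20 for MCL1, 0.26, 0.29 and 0.26 for BAD, and -0.024, -0.035 and -0.024 for BMF. HRK was tested only without the filter (-0.52, adjusted p = 0.494, limma), and BCL2L2 in none. NEUROD1 was at -0.96, -1.08 and -0.96 and did not pass. Its FPKM locus holds 5 starts, all within CERKL and 1 within NEUROD1. The cause of these changes, that of NEUROD1 included, was not tested.

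The alternatives for NEUROD1 and for the relatives and pathway genes were added after seeing the data. Deviations from the group means of same-numbered libraries correlated at 0.0158 across genes. With 2 libraries per group this cannot show whether same-numbered libraries were handled together. With the replicate number as a block, 4 members were lower and 1 was higher, as without it. Groups of 2 libraries limit precision most for members under 20 CPM.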
